A study of Danio rerio with 4 samples.

Results

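Here 6 stress-inducible zebrafish genes were followed across the RNA-seq libraries of *asxl1* wild-type and mutant tails: *fosab*, *fosb*, *fosl1a* and *fosl2*, which encode Fos proteins, *atf3*, which encodes a related basic leucine zipper factor, and *btg2*, which encodes an anti-proliferative co-regulator. They are 6 of the 32520 genes in the count table. They were chosen by their expression difference between the genotypes in these same libraries, since they were taken from the genes that the study called in that contrast. Those differences are therefore given as a description, with no test.

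The libraries came from 3 dpf embryos of *asxl1*+/- intercrosses on an AB background, 2 from *asxl1*+/+ and 2 from *asxl1*-/- embryos, and no treatment was given. The mutant carries a frameshift deletion made with CRISPR/Cas9 in a late exon, which is predicted to truncate the C-terminus of the Asxl1 chromatin regulator; the labels give the genotype and do not name the allele. Each library was made from about 20 pooled tails, including the caudal hematopoietic tissue, the niche in which blood stem and progenitor cells expand. The libraries of a genotype carry the letters A and B, and are called wild-type A, wild-type B, mutant A and mutant B below. The labels do not say whether the letters mark separate clutches, so tests here measure only the spread between these pools, which may be technical.

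AP-1 is a dimer of basic leucine zipper proteins. Fos proteins need a partner, usually a Jun protein, to bind DNA, whereas Jun proteins can also pair with each other. ATF3 and JDP2 can pair with Jun proteins as activating or repressing partners. Many of these genes are immediate early genes: in mammalian cells their transcription starts within minutes of a mitogen, a wound or a stress, through SRF, ELK and CREB factors that are already present, and their mRNAs are soon degraded. In zebrafish tails, AP-1 genes are known for their induction at wounds and during fin regeneration.

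Total counts were 22963847 for wild-type A and 26281738 for wild-type B, against 19423797 for mutant A and 20027260 for mutant B, so both mutant libraries were less deep. Levels are in CPM, counts scaled to a common library total with TMM factors, which lay between 0.990 and 1.01. All 6 genes passed the filter on low counts, as did 19970 genes in all. *asxl1* itself stood at 65.3 and 65.3 CPM in *asxl1*+/+ and at 57.1 and 57.6 CPM in *asxl1*-/- libraries (log2 fold change -0.19, SE 0.076, FDR 1.0). Counting over whole genes cannot see a small deletion, so this level checks the labels little. Muscle markers summed to between 82739 and 87708 CPM and epidermal markers to between 33308 and 36330 CPM in the libraries, the highest sums of the marker lists read.

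The 4 Fos genes stood higher in *asxl1*-/- than in *asxl1*+/+ libraries, by mean ratios from 1.32 for *fosl2* to 3.20 for *fosb*. *fosab*, an orthologue of mammalian *Fos* and the prototype of the family, was at 4.03 CPM in wild-type A, 1.61 in wild-type B, 5.29 in mutant A and 5.89 in mutant B. The wild-type libraries thus lay far apart and the mutant libraries close together, and the genotypes did not overlap. The mean was 2.82 ± 1.71 CPM in the wild-type and 5.59 ± 0.421 CPM in the mutant libraries (SD, n = 2 each, as for all means below), a ratio of 1.98 and a fitted log2 fold change of 1.01 with an SE of 0.32. Most of that difference sat in the B libraries, which held 42 and 117 *fosab* counts and differed by 1.87 on the log2 scale, against 0.39 between the A libraries with 93 and 104 counts. Without wild-type B the fitted value was 0.47, and without wild-type A it was 1.79. In a pooled tail, fewer cells of a type and less RNA per cell cannot be told apart, here and for every gene that follows.

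*fosb*, which encodes a Fos protein of neurons and other stimulated cells in mammals, had the widest relative difference of the 6 genes. It stood at 1.34 CPM in wild-type A, 0.807 in wild-type B, 4.02 in mutant A and 2.87 in mutant B. The higher wild-type library was below the lower mutant library, and the mutant-to-wild-type ratio was alike in both letters, at 2.99 in A (95% exact counting interval 1.95 to 4.69) and 3.55 in B (2.12 to 6.17). The mean went from 1.07 ± 0.379 to 3.44 ± 0.814 CPM, and the fitted log2 fold change was 1.69 with an SE of 0.30. These values rest on few reads: 31, 21, 79 and 57 counts in the same order. Such intervals cover counting error only.

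*fosl1a* and *fosl2* encode Fra-type proteins, which in mammals lack the strong activation domain of Fos. *fosl1a* was at 2.21 CPM in wild-type A, 2.61 in wild-type B, 6.21 in mutant A and 4.13 in mutant B. Here the wild-type libraries were close and the mutant libraries apart, with no overlap between the genotypes. Its ratio of means was 2.14 (2.41 ± 0.286 against 5.17 ± 1.47 CPM), with a log2 fold change of 1.09 and an SE of 0.23. In contrast to *fosab*, its difference was wider in the A libraries, at 1.49 on the log2 scale, than in the B libraries, at 0.66.

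*fosl2* had the narrowest difference of the Fos genes and the steadiest wild-type level. It stood at 9.23 CPM in wild-type A, 8.99 in wild-type B, 13.0 in mutant A and 11.1 in mutant B. Both mutant libraries lay above both wild-type libraries, with means of 9.11 ± 0.165 and 12.02 ± 1.35 CPM, and the log2 fold change was 0.40 with an SE of 0.13. The ratio was 1.41 in A (counting interval 1.17 to 1.69) and 1.23 in B (1.02 to 1.49).

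*atf3* encodes a stress-induced factor that represses transcription as a homodimer and can also pair with Jun proteins in mammals. It was at 5.50 CPM in wild-type A, 6.76 in wild-type B, 9.72 in mutant A and 8.70 in mutant B. The genotypes did not overlap, and the means of 6.13 ± 0.893 and 9.21 ± 0.716 CPM gave a ratio of 1.5. Its log2 fold change was 0.58 with an SE of 0.16, made up of 0.82 in the A libraries and 0.36 in the B libraries.

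*btg2* is no AP-1 gene: its product has no leucine zipper and in mammals recruits the CCR4-NOT deadenylase and slows the cell cycle. It was the member whose genotypes overlapped. Its level was 25.3 CPM in wild-type A, 13.6 in wild-type B, 25.9 in mutant A and 21.1 in mutant B, so wild-type A was above mutant B. The A libraries hardly differed between the genotypes, with a ratio of 1.03 (counting interval 0.910 to 1.16), whereas the B libraries differed by a ratio of 1.56 (1.35 to 1.80). Its means were 19.4 ± 8.26 and 23.5 ± 3.40 CPM, with a log2 fold change of 0.28 and an SE of 0.23. Without wild-type B the fitted value was -0.10, and without wild-type A it was 0.79.

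**Figure D1:**
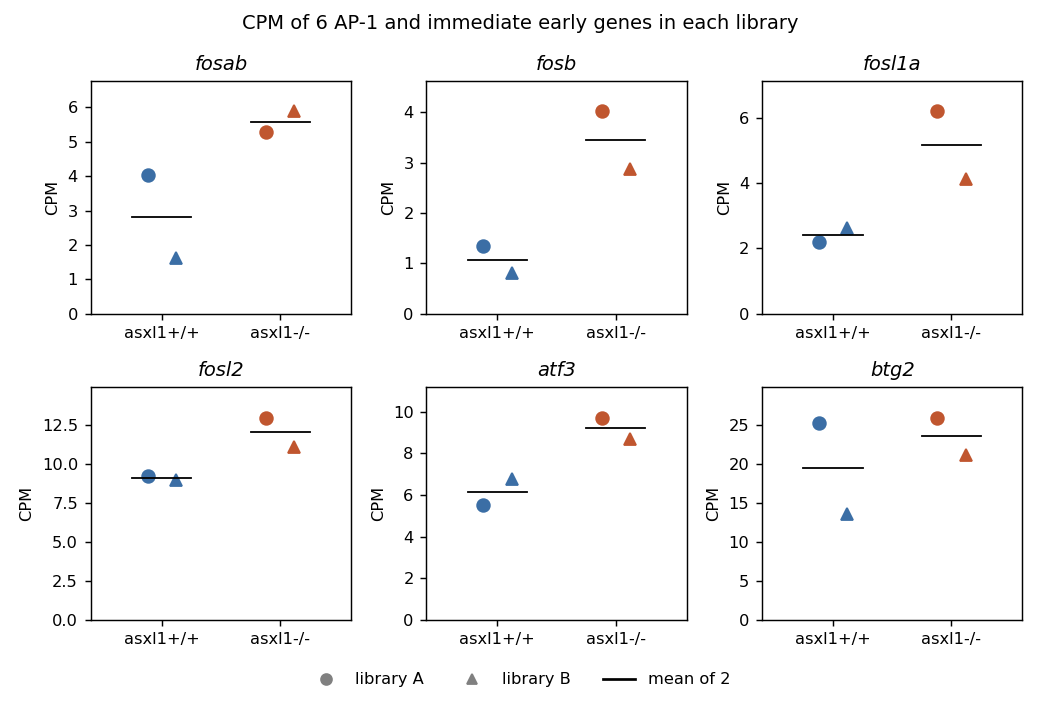
CPM (linear axis from 0) of the 6 genes in the 4 libraries, with points for libraries A and B of each genotype and a bar at the mean of each genotype. The mutant points lie above the wild-type points for 5 genes, and for *btg2* the wild-type library A at 25.3 CPM lies above the mutant library B at 21.1 CPM.

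Thus in 5 of the 6 genes both mutant libraries lay above both wild-type libraries. Of all genes tested, 15.4% had this order, and since the same contrast chose the members, nothing was read from their count. At the lower end of the members' differences stood *btg2*, at 0.28, and *fosl2*, at 0.40. Among AP-1 genes that were not in the called set, the widest differences were 0.67 for a *JDP2* gene (ENSDARG00000020133), 0.63 for a *JUNB* gene (ENSDARG00000074378), -0.34 for the other *JDP2* gene (ENSDARG00000040137) and 0.31 for the other *JUNB* gene (ENSDARG00000104773). The sizes of the differences of members and other AP-1 genes therefore overlapped.

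**Figure D2:**
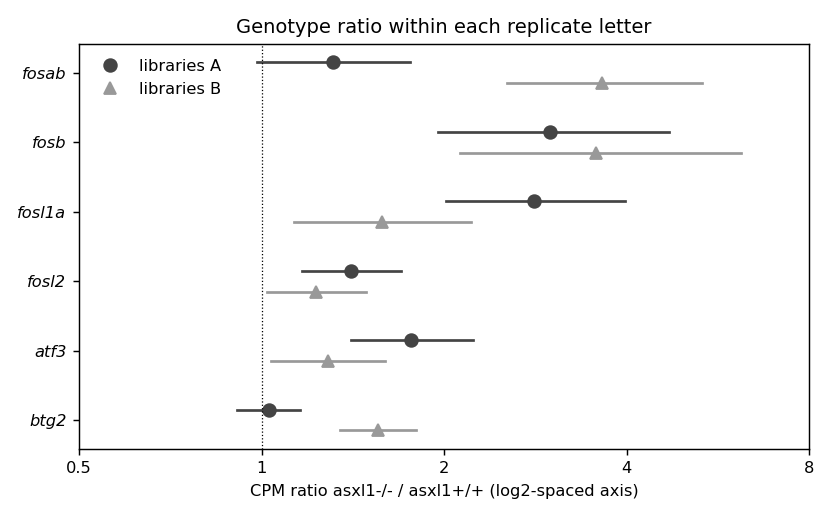
Ratio of CPM, *asxl1*-/- over *asxl1*+/+, within letter A and within letter B for each of the 6 genes on a log axis, with 95% exact intervals that cover counting error only. *fosb* has like ratios in both letters (2.99 and 3.55), *fosab* and *btg2* have the larger ratio in B (3.65 and 1.56), and *fosl1a*, *fosl2* and *atf3* in A (2.81, 1.41 and 1.77).

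Levels of different genes were compared per kilobase of exon, which allows for transcript length. All exons enter this length, although 26.8% of the *fosab* exons and 3.22% of the *fosl1a* exons are shared with other genes. Pairs on shared bases were not counted, so these 2 levels and the Fos sum are understated. The place of *fosab* in the order is therefore uncertain. On this scale *btg2* had the highest mean level of the 6 genes, at 7.44 CPM per kb, followed by *fosl2* at 2.91, *atf3* at 2.84, *fosab* at 2.47, *fosl1a* at 0.946 and *fosb* at 0.806. The range of *btg2* over the libraries lay above that of *fosl2*, and the ranges of all later neighbours in this order overlapped. *fosb*, with the widest difference between the genotypes, was thus the least abundant member. Summed per kb, the 4 Fos members reached 5.94 and 4.37 CPM per kb in *asxl1*+/+ A and B and 9.67 and 8.57 in *asxl1*-/- A and B. The 4 genes named *JUN*, *JUNB* or *JUND* summed to 34.1, 29.4, 39.3 and 30.3 CPM per kb in the same order, several times the Fos sum in every library.

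**Figure D3:**
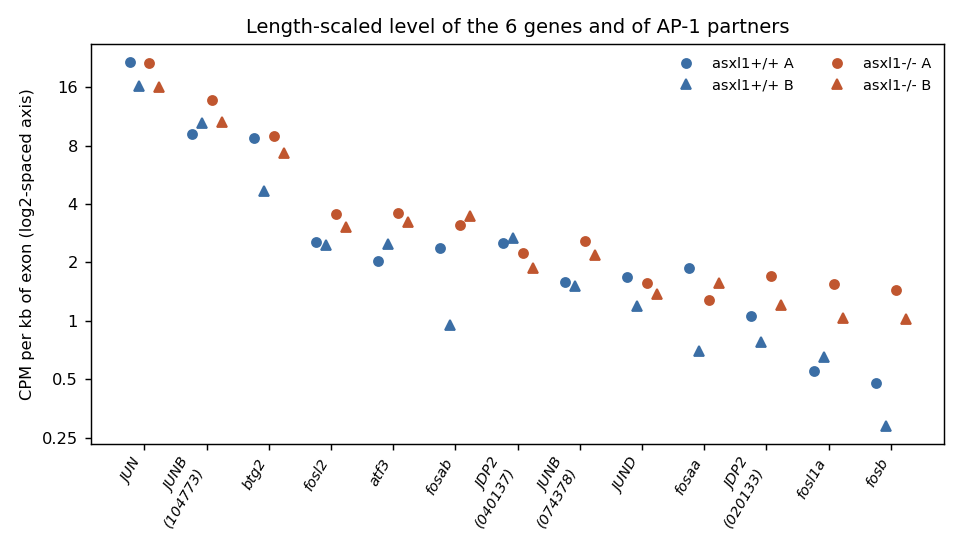
Level of the 6 genes and of the other AP-1 genes tested, as CPM per kilobase of exon on a log axis, with 1 point per library. *JUN* is the most abundant at a mean of 18.8 CPM per kb and *fosb* the least at 0.806.

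The replicate letter was tested in a fit with genotype, by edgeR's quasi-likelihood test with FDR adjusted over the 19970 genes. This left 1 residual degree of freedom per gene. The study's methods name edgeR's exact test for the genotype contrast that gave its list of 294 genes. Here that test called 53 genes, and a genotype test with the letter as a block called 301. Of the 6 members the exact test called 2 and the block test 6, where 0.265% and 1.51% of all genes were called. These counts bear only on how the members were chosen. Whether the letter took part in that choice is not known. The letter tests of the members may therefore not be independent of it. *btg2* was lower in the B libraries, by 0.59 on the log2 scale (SE 0.086, FDR 6.15e-10). It was lower in both genotypes, by 0.90 in *asxl1*+/+ and 0.30 in *asxl1*-/-, with B-to-A ratios of 0.537 (counting interval 0.469 to 0.614) and 0.815 (0.714 to 0.929). This made 1 of the 6 genes called between the letters, where 8.53% of all genes were called, and 1 of 6 with both B libraries below both A libraries, where 23.3% had that order. With the letter alone in the model *btg2* was again the 1 gene called (2.79% of all genes). DESeq2 called 0 of the 6 (0.781% of all genes; FDR 1.0 for *btg2*), with 1 at an unadjusted p under 0.05, and across the edgeR alternatives that could be tested its FDR lay between 6.76e-11 and 0.0417.

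The 5 AP-1 genes did not pass this test, and 3 of the 6 genes had an unadjusted p under 0.05, as did 19.6% of all genes. *fosab* (letter difference -0.43, SE 0.18, FDR 0.141) and *fosb* (-0.56, SE 0.25, FDR 0.170) were the other 2 of these 3. *fosl1a* (-0.25, FDR 0.506), *fosl2* (-0.13, FDR 0.576) and *atf3* (0.05, FDR 0.885) had smaller ones. The average hides opposite signs: *fosab* was 1.32 lower in B than in A among the *asxl1*+/+ libraries and 0.15 higher among the *asxl1*-/- libraries, on the log2 scale. With 4 libraries no degree of freedom remains to test whether a letter difference depends on the genotype.

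**Figure D4:**
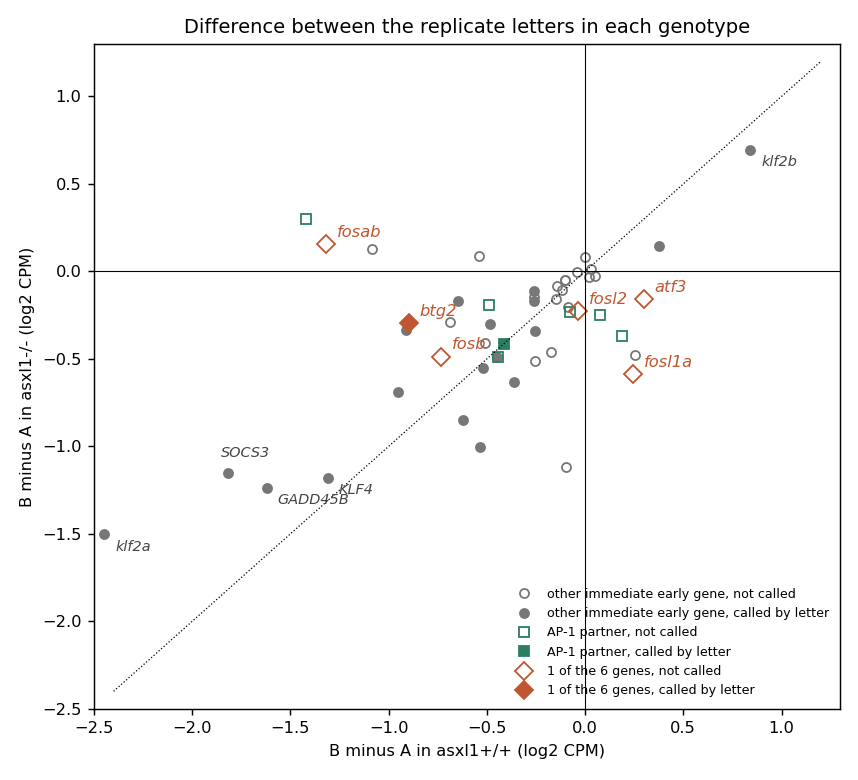
Difference between the letters, log2 B minus A, within *asxl1*+/+ and within *asxl1*-/- libraries. Points are the 6 genes, the other immediate early genes tested and the AP-1 partners tested. Filled points were called between the letters and open points were not. *btg2* lies below 0 in both genotypes (-0.90 and -0.30), while *fosab* lies at -1.32 in *asxl1*+/+ and at 0.15 in *asxl1*-/-; *klf2a* is the farthest below 0 on the fitted scale, at -2.04.

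Other AP-1 genes and partners were taken from a list of 10 genes, of which 7 passed the filter; *fosl1b*, *BATF* and *BATF3* had at most 8 counts in any library. Names in capitals are as the symbol table gives them for the zebrafish identifiers. Between the genotypes 0 of the 7 passed an FDR of 0.05, against 12 of all genes (0.0601%), and 2 had an unadjusted p under 0.05, as did 3.08% of all genes. The exact test of edgeR and DESeq2 called 0 as well, against 0.265% and 0.135% of all genes. Those 2 were the *JUNB* and *JDP2* genes with differences of 0.63 and 0.67, and their FDR was 1.0. The list had a median difference of 0.17 against 0.00075 for all genes, and the median was -0.19 without wild-type B.

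*JUN*, the main partner of Fos proteins, was at 42.1 CPM in wild-type A, 31.7 in wild-type B, 41.8 in mutant A and 31.3 in mutant B. Both A libraries were thus above both B libraries: it was lower in B by 0.41 (SE 0.07, FDR 1.83e-07; not called by DESeq2), while its genotype difference was -0.01 with an SE of 0.16. *fosaa*, the paralogue of *fosab*, had genotypes that overlapped, with 57 and 24 counts in wild-type A and B and 33 and 41 counts in mutant A and B (log2 fold change 0.17, SE 0.40). Its lowest library was wild-type B, as for *fosab*, which was chosen by its genotype difference.

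Other immediate early genes formed a list of 42 genes, of which 38 were tested and 1 (*sgk1*) is in the study's called set. Between the genotypes 0 passed an FDR of 0.05 with edgeR's quasi-likelihood test, the exact test or DESeq2. By the quasi-likelihood test 2 had an unadjusted p under 0.05, as did 3.08% of all genes. Those 2 were *sgk1*, a kinase gene of the serum response (-0.27), and a *SOCS3* gene, a feedback inhibitor of cytokine signalling (ENSDARG00000026611, 0.32). Their median difference was 0.01, and both mutant libraries lay above both wild-type libraries for 5 of 38, where 15.4% of all genes had that order.

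Between the letters, 16 of these 38 genes were lower in B and 2 higher, that is 42.1% lower where 4.26% of all genes were lower and 4.27% higher, with a median of -0.31 against -0.0010. *klf2a*, a flow-responsive zinc finger gene, stood at 68.5 CPM in A and 12.6 in B of the wild type and at 39.1 in A and 13.8 in B of the mutant (letter difference -2.04, FDR 5.28e-144). A *SOCS3* gene (ENSDARG00000025428) stood at 12.2 and 3.46 CPM in wild-type A and B and at 10.5 and 4.73 CPM in mutant A and B (-1.50, FDR 1.2e-23). A *GADD45B* gene (ENSDARG00000027744), a stress sensor, was at 25.4 and 8.26 and at 19.8 and 8.40 CPM in the same order (-1.45, FDR 3.71e-42). In all 3 the A libraries of both genotypes were above the B libraries, the order *btg2* had.

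The other genes lower in B included *KLF4* (-1.24), the MAP kinase phosphatase gene *DUSP1* (-0.65, FDR 2.56e-13), the zinc finger gene *egr1* (-0.49, FDR 0.0024), the orphan nuclear receptor gene *NR4A1* (-0.47, FDR 8.48e-13) and *ier2a* (-0.39). *CSRNP1*, *NR4A3*, *GADD45A* (ENSDARG00000104571), *MYC* (ENSDARG00000007241), *DUSP2*, *CCN1*, *DUSP6* and *mcl1a* made up the rest, from -0.83 to -0.19. A second gene of the same name was not called for *GADD45A* (0.02, FDR 0.974), *MYC* (-0.15, FDR 0.233), *SOCS3* (-0.02, FDR 0.942) and *GADD45B* (-0.37, FDR 0.339). *klf2b*, the paralogue of *klf2a*, was higher in B, at 25.9 and 46.5 CPM in wild-type A and B and at 29.4 and 47.5 CPM in mutant A and B (0.77, FDR 4.55e-26), as did a *PLK2* gene (0.27). *KLF6*, the most abundant of the list at 97.1 CPM, was not called (-0.07, FDR 0.445). With the letter alone in the model 11 of the 38 genes were called (2.79% of all genes), 10 of them lower in B. DESeq2 called 6 (0.781% of all genes), 5 of them lower. Markers of some cell types also differed between the letters, where 4.26% of all genes were lower in B and 4.27% higher. Of the erythroid markers, 3 of 3 tested were lower in B, with sums of 149 and 158 CPM in the A libraries and 109 and 141 CPM in the B libraries. In contrast, 3 of 5 muscle markers and 2 of 4 exocrine pancreas markers were higher in B and none lower, and of 4 epidermal markers 1 was higher and 1 lower. The 2 exocrine calls rested on the wild-type libraries. *prss1* had 46 and 187 counts in wild-type A and B, but 12 and 5 in mutant A and B. *ctrb1* had 31 and 138 counts in wild-type A and B and 0 in both mutant libraries. The part of these cell types in the letter differences was not tested.

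Of the BTG and TOB genes, relatives of *btg2* that also slow proliferation, 5 of 6 were tested. Between the genotypes 0 passed an FDR of 0.05 and 0 had an unadjusted p under 0.05, and the exact test and DESeq2 called 0. Between the letters 3 of the 5 were lower in B, where 4.26% of all genes were, and none higher: *tob1b* (-0.51, FDR 6.27e-21), *TOB1* (-0.34, FDR 1.88e-08) and *BTG1* (-0.14, FDR 0.0372). *tob1b* stood at 112 and 77.0 CPM in A and B of *asxl1*+/+ and at 121 and 87.4 CPM in A and B of *asxl1*-/-. *btg3*, a low gene of the family at 7.1 CPM, was not called (0.07, FDR 0.859). With the letter alone in the model 2 were called (2.79% of all genes), and 1 by DESeq2 (0.781% of all genes).

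Of 14 kinases and transcription factors that act upstream of immediate early genes, 1 of which is in the study's called set, 0 passed an FDR of 0.05 between the genotypes, whether by the quasi-likelihood test, the exact test or DESeq2. An unadjusted p under 0.05 was found for 1, *elk4*, as for 3.08% of all genes. *elk4*, a partner of SRF, is also the list's gene in the study's called set. It was at 2.95 and 4.46 CPM in *asxl1*+/+ and 5.54 and 5.68 CPM in *asxl1*-/- libraries (0.59, SE 0.21, FDR 1.0). Between the letters, *MAPK14* (ENSDARG00000000857, 0.25), a p38 kinase gene, and *MAPK8* (ENSDARG00000009870, 0.27), a JNK gene, were higher in B, and none was lower. That was 2 of 14 genes higher, where 4.27% of all genes were. Neither was called by DESeq2 or with the letter alone in the model.

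Genes of wounds and inflammation that have been linked to AP-1 were read as well, of which 19 of 29 were tested and 6 are in the study's called set. By the quasi-likelihood test 0 passed an FDR of 0.05 between the genotypes. An unadjusted p under 0.05 was found for 6, 5 of them higher in *asxl1*-/-, where 3.08% of all genes had such a p. The exact test and DESeq2 called 1 each, against 0.265% and 0.135% of all genes. Both mutant libraries were above both wild-type libraries for 9 of the 19, or 47.4%, against 15.4% of all genes. *fn1b*, a fibronectin gene, stood at 66.8 and 80.6 CPM in *asxl1*+/+ and at 103 and 129 CPM in *asxl1*-/- libraries (0.66, FDR 0.132). The chemokine gene *cxcl18b* was at 1.3 and 0.769 against 3.05 and 1.71 CPM (1.21, FDR 1.0). Between the letters *irg1l* was lower in B (-0.55, FDR 0.00171) and *fn1b* (0.30, FDR 8.72e-07) and the collagenase gene *mmp13a* (0.61, FDR 0.0295) were higher, with 0 called by DESeq2 or with the letter alone in the model. That was 3 of 19 genes called between the letters, where 8.53% of all genes were. Since the study's called set was known when the list was written, the list is not independent evidence of a direction.

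Heat shock and chaperone genes, which respond to stress through other factors than AP-1, were measured in 14 of 15 cases, with 4 in the study's called set. By the quasi-likelihood test 0 passed an FDR of 0.05. An unadjusted p under 0.05 was found for 3, all in that set, as for 3.08% of all genes. The exact test and DESeq2 called 1 each, against 0.265% and 0.135% of all genes. *hspb1*, a small heat shock gene, was at 30.8 and 28.7 CPM in *asxl1*+/+ and at 45.2 and 44.7 CPM in *asxl1*-/- libraries (0.59, FDR 0.0644). *hspb11* was higher in *asxl1*-/- too, at 8.45 and 8.42 against 12.1 and 13.0 CPM (0.57, FDR 0.381). *hspb7* lay the other way (-0.94, FDR 0.73). Between the letters *hspa5*, the chaperone gene of the endoplasmic reticulum, was lower in B, at 160 and 114 CPM in wild-type A and B and at 190 and 119 CPM in mutant A and B (-0.58, FDR 3.81e-33), and *hsp90aa1.1* (-0.33) and *dnajb1a* (-0.43) were lower in B too, while *hsf1* (0.29) and *HSF2* (0.55) were higher. These were 5 of 14 genes called between the letters, where 8.53% of all genes were. With the letter alone in the model 3 of the 14 were called (2.79% of all genes), and 2 by DESeq2 (0.781% of all genes).

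Markers of other cell types were set beside the genotype values. Both *asxl1*-/- libraries lay below both *asxl1*+/+ libraries for 14.6% of all genes tested. For neutrophils, 4 of 4 markers had that order, with sums from 62.8 to 73.2 CPM against 84.1 to 96.5 CPM. All 4 exocrine pancreas markers did so too, with sums from 1.07 to 1.21 against 5.41 to 14.9 CPM and *ctrb1* at 0 counts in both mutant libraries. These 8 genes are in the study's called set. Of the muscle, epidermal and neural markers, 1 of 5, 2 of 4 and 2 of 3 had the same order. These were *actc1b*, *krt5*, *krt8*, *mbpa* and *nefmb*, all of them in the study's called set too. Of 3 erythroid markers, the 2 in the study's called set lay the other way, *hbbe2* (0.27) and *slc4a1a* (0.30), while *alas2* was at -0.08. Both mutant libraries lay above both wild-type libraries for 1 of 3 (*hbbe2*), an order that 15.4% of all genes had. The erythroid sums overlapped, at 149 and 109 CPM in wild-type A and B and 158 and 141 CPM in mutant A and B. Macrophage sums lay between 48.2 and 53 CPM over all libraries, and endothelial sums between 103 and 109 CPM. Both mutant libraries lay above both wild-type libraries for 1 of 5 macrophage markers, *marco* (0.28). The same held for 1 of 3 endothelial markers, *lyve1a* (0.58), which is in the study's called set. At a mean of 5.28 CPM, *lyve1a* adds little to the endothelial sums. For macrophages 3 of 4 marker names were matched, and 5 of their 10 genes were tested. *csf1ra* alone stood at 29.9 to 33.8 CPM, so the macrophage sums rest mostly on it. The part of cell composition, and that of the lower depth of both mutant libraries, in the values of the 6 genes was not tested. Thinning all libraries to 1 depth left the direction of each genotype difference as it was. The members were chosen by that difference, so thinning does not test the part of depth.

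Likeness of pattern was measured as the distance between centred log2 CPM profiles over the 4 libraries, among 17427 genes with a mean of at least 1 CPM. With so few libraries near neighbours are common, and the distances describe these libraries only. The nearest named genes were *cyp27b1* for *fosab* (distance 0.589), *si:dkey-147f3.4* for *fosb* (0.472), *si:dkey-103k4.1* for *fosl1a* (0.210), *oatx* for *fosl2* (0.0144), *si:cabz01015815.4* for *atf3* (0.0595) and *ATF2* for *btg2* (0.0773). *NR1H4* and *HTR1D* followed for *fosab*, *cxcl18b* and *tcap* for *fosb*, *mustn1b* and *agr2* for *fosl1a*, *tlr5a* and *zgc:86764* for *fosl2*, *ihhb* and *cenpk* for *atf3*, and *KCNG1* and *zgc:113176* for *btg2*. Among the members, the nearest pairs were *fosl2* and *atf3* (0.307), *fosl1a* and *atf3* (0.552) and *fosl2* and *btg2* (0.609), and *fosab* and *fosb* lay at 0.804. Profiles that vary little lie near many others, so rank differs from distance: *atf3* ranked 1410 among the genes nearest to *fosl2*, while *fosab* ranked 5 among those nearest to *fosb*.

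The 6 genes lie on 5 chromosomes of GRCz11, as the count table places them. *fosab* (ENSDARG00000031683) spans chr20:46552311-46554440 on the minus strand and *atf3* (ENSDARG00000007823) chr20:37794633-37800737 on the plus strand. *fosb* (ENSDARG00000055751) spans chr18:36769758-36774965 on the plus strand, *fosl1a* (ENSDARG00000015355) chr14:30739476-30747686 on the minus strand, *fosl2* (ENSDARG00000040623) chr17:41302660-41318547 on the plus strand and *btg2* (ENSDARG00000020298) chr22:336256-339623 on the plus strand. *fosl2* has 5 merged exon blocks, *btg2* has 2 and the others have 4. *fosab* lies 32238 bases from the *JDP2* gene with the difference of 0.67, and *fosaa* lies 8770 bases from the other *JDP2* gene (ENSDARG00000040137), so both *fos* paralogues have a *JDP2* neighbour. That second *JDP2* gene had a genotype difference of -0.34.

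The 12 nearest tested neighbours of the members, 1 on each side, had genotype differences from -0.18 to 0.67, the highest of which was that *JDP2* gene, and 0 were called between the letters (lowest FDR 0.0580). Because counting did not use the strand, overlapping genes were checked. *fosab* lies within the span of its left neighbour *si:ch211-153j24.3*, which is on the other strand and shares 0 exonic bases with it. That neighbour had 28 and 25 counts in wild-type A and B and 29 and 17 in mutant A and B. *fosab* shares 455 exonic bases, 26.8% of its exons, with an unnamed gene on the other strand (ENSDARG00000097234). *fosl1a* shares 129 bases, 3.22%, with a 5S rRNA gene. The unnamed gene and the 5S rRNA gene had 0 counts in every library. Read pairs that touched both genes of such an overlap were not counted, so the counts of *fosab* and *fosl1a* come from their remaining exons.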

How the data were processed

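RNA-seq of pooled tails (total RNA per the labels, poly-A selected per the study's methods) was analysed in 4 libraries. The authors mapped read pairs to GRCz11 with STAR, assigned them to exons of Ensembl release 96 genes with featureCounts 1.6.4 without strand, and deposited raw counts per gene, unfiltered; pairs matching more than 1 gene were not counted. All per-sample columns were used.

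The deposited counts were fitted in R 4.3.3 with edgeR 4.0.16 (filterByExpr by genotype, TMM, quasi-likelihood test, Benjamini-Hochberg, FDR threshold 0.05), on genotype and, in a second model, on genotype and replicate letter. Alternatives were edgeR's exact test, DESeq2 1.42.0, the letter as a block or alone, library totals, DESeq2 size factors, no filter, at least 10 counts in every library, thinning to the smallest total in 1 seeded draw, FDR 0.01 and each library left out. Both models were tested on simulated counts. Ratio intervals are exact 95% binomial intervals of counts. Python 3.11.15 (SciPy 1.17.1, pandas 2.3.3, matplotlib 3.10.9) served for tables and plots.

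The members and gene lists were chosen with earlier results of these data known. Genes named are the members, list genes past FDR 0.05, up to 4 abundant genes per list, and the 3 nearest named genes per member; *fosaa*, the *JDP2* neighbours and list genes with an unadjusted p under 0.05 were named after their values were seen. Names came from the study's list of 294 genes and a symbol table, which together named 29207 identifiers. For likeness and log2 CPM a prior count of 2 was used. Results of 1 gene list are not reported here.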

Additional observations from a re-analysis of the deposited data

Results flagged for a closer look

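For 3 of the 6 genes the libraries B and A differed in opposite directions in the genotypes, a difference that was not tested because no degree of freedom remains. *fosab* had a log2 difference, B minus A, of -1.32 in *asxl1*+/+ and 0.15 in *asxl1*-/-. *fosl1a* had 0.24 in *asxl1*+/+ and -0.59 in *asxl1*-/-. *atf3* had 0.30 in *asxl1*+/+ and -0.16 in *asxl1*-/-. For *fosab* the counting interval of the B-to-A ratio was 0.271 to 0.583 in *asxl1*+/+ and 0.847 to 1.46 in *asxl1*-/-.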

How the results depend on the processing

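Of all genes tested, 12 passed an FDR of 0.05 between the genotypes. This count was 53 with edgeR's exact test, 27 with DESeq2, 19 without the filter and 2 at an FDR of 0.01, and between 9 and 80 with a library left out (67 without *asxl1*-/- replicate A, 80 without *asxl1*-/- replicate B). With the replicate block it was 301; libraries of a letter share only that letter in the labels, and their deviations from the means of each genotype correlated at 0.27. With the replicate block, 5 of 19 wound and inflammation genes were called (4 higher and 1 lower in *asxl1*-/-), 4 of 14 heat shock genes (3 higher, 1 lower), 2 of 38 other immediate early genes (both lower), 1 of 14 upstream genes (higher), and 0 of the 7 AP-1 partners and 5 BTG and TOB genes, where 1.51% of all genes were called. The genotype difference of the 5 AP-1 genes kept its direction in 12 of 12 alternatives each, and that of *btg2* in 11 of 12. The members were chosen by this difference and the alternatives refit the same libraries, so a kept direction adds no support. The widest ranges on leaving out a library were those of *fosab* (0.47 to 1.79), *btg2* (-0.10 to 0.79), which crosses 0, and *fosb* (1.35 to 2.08). The letter count of 1703 genes was 558 with the letter alone, 156 with DESeq2 and 983 at an FDR of 0.01. The causes of these differences were not tested. With 3 libraries the letter fit leaves no degree of freedom, so only its values were computed, which for *btg2* lay between -0.90 and -0.29. Depth limits *fosb* the most, at 21 to 79 counts a library.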
